A study of Mus musculus with 20 samples.

Results

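Regulatory T (Treg) cells sorted from the mesenteric lymph nodes (mLN) of mice that lack *Tet2* and *Tet3* in Treg cells were compared with WT Treg cells by RNA sequencing. The comparison rests on 6 of the 20 samples of the series, namely the 3 DKO and 3 WT samples of CD4+YFP+ cells in the mLN count table. All mice were C57BL/6 and 14 weeks old, and each sample is a biological replicate. WT mice carried *Foxp3*Cre alone, an allele in which a YFP-Cre fusion protein is expressed from the *Foxp3* gene, and DKO mice were *Tet2/3* fl/fl *Foxp3*Cre. The controls therefore also carried Cre and YFP, and deletion took place only in cells that had turned on *Foxp3*, which lies on the X chromosome. The sex of the mice is not given in the labels. The paper reports that DKO mice of this strain develop an inflammatory disease with enlarged spleens and mLN. Effects of the deletion in the sorted cells and of the disease around them cannot be told apart in this comparison. Another 6 samples hold CD4+Foxp3- cells, sorted as CD4+YFP- cells, from mLN of WT and DKO mice, and 4 samples hold Treg cells from pooled spleen and peripheral lymph nodes (pLNs). These were used only where the effect in mLN Treg cells is set beside them.

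TET proteins oxidise 5-methylcytosine in DNA and so start the loss of methylation at promoters and enhancers. Treg cells depend on the transcription factor Foxp3 and on IL-2 signalling, hold other T cells in check, and keep stretches of the genes that define them free of methylation. DNA methylation was not part of the measurements described here, which are of mRNA alone. In sorted bulk samples, fewer cells of one kind and less RNA per cell cannot be told apart.

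The RefSeq promoters of 4 genes with very large gains and of 1 with a large loss are shown because they differ widely in CpG, the dinucleotide on which TET proteins act. RefSeq's table for build GRCm38.p6 held 22 of the 30 genes chosen for the size of their change. The *Spon1*, *Sdc2*, *Fbn2*, *Epas1*, *Klrg1*, *Prg4*, *Socs2* and *Cd8b1* genes were not matched. Each line gives the 250 bases before the transcription start, 5′ to 3′ on the strand of the gene, with every CG in capitals. They lie at chr1:170277068-170277317 on the plus strand (*Sh2d1b1*, an adaptor of SLAM family receptors), chr13:89540386-89540635 on the plus strand (*Hapln1*, a link protein of hyaluronan matrix), chr3:110143473-110143722 on the minus strand (*Ntng1*, a netrin-related axon guidance protein), chr14:105896820-105897069 on the minus strand (*Spry2*, a feedback inhibitor of receptor tyrosine kinase signalling) and chr1:40429320-40429569 on the plus strand (*Il1rl1*, the IL-33 receptor ST2). The *Il1rl1* sequence belongs to the first of 2 starts in the table. There is 1 CG in the *Sh2d1b1* stretch, 2 in *Hapln1*, 25 in *Ntng1*, 23 in *Spry2* and 0 in *Il1rl1*. The other *Il1rl1* start has 3.
Sh2d1b1: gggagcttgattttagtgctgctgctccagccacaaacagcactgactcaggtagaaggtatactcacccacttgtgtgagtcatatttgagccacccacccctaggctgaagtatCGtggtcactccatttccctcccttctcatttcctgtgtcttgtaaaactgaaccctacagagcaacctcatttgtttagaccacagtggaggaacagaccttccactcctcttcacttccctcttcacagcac
Hapln1: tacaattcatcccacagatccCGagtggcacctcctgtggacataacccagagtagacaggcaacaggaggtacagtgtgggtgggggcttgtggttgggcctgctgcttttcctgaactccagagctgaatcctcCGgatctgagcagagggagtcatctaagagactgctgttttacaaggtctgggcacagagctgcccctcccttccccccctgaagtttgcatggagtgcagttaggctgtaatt
Ntng1: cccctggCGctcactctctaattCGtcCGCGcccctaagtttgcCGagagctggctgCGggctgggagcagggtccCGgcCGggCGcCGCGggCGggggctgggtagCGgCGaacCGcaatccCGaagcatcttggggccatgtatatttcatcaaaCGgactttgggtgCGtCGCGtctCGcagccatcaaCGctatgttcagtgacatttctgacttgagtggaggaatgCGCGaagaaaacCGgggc
Spry2: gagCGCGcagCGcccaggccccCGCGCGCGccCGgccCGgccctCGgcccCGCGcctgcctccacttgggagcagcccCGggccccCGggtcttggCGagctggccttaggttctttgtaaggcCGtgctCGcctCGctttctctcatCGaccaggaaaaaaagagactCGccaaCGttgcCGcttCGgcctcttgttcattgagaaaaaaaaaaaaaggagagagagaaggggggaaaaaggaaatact
Il1rl1: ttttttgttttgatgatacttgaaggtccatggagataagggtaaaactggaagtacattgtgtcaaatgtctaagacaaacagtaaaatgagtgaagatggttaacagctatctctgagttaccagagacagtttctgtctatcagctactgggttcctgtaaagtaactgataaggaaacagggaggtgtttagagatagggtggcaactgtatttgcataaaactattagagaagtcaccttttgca

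The 6 libraries held between 9998478 and 13100924 counted reads, so that 3 counts, the limit of detection used here, correspond to 0.216 to 0.295 CPM (a gene's reads per fixed total of counted reads). Levels below are CPM after TMM normalization, always given in the order of replicates 1, 2 and 3. Between 13545 and 13853 genes had reads in WT libraries and between 14324 and 14541 in DKO libraries. On the first principal component, with 84.1% of the variance of the 500 most variable genes, WT libraries lay between -36.5 and -34.5 and DKO libraries between 33.1 and 38.2. DKO replicate 2 stood apart from the other DKO libraries on the second component, at -21.8 beside 12.4 and 9.24. It also held transcripts of antibody-secreting cells. *Jchain*, the joining chain of IgA and IgM, was at 3.37, 1.24 and 1.77 CPM in WT against 2.14, 412 and 8.89 CPM in DKO. The summed level of the 9 measured plasma cell markers was 216 to 228 CPM in WT and 204 to 728 CPM in DKO libraries. The 2 of them called higher, *Jchain* and *Derl3*, were not called without DKO replicate 2 (edgeR's adjusted p = 0.615 and 0.22).

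The T cell genes *Cd3d*, *Cd3e*, *Cd3g* and *Cd4* were abundant in both groups. *Foxp3* was at 310, 299 and 326 CPM in WT against 277, 308 and 329 CPM in DKO, and the groups overlapped (log2 fold change -0.03, edgeR's adjusted p = 0.979). Cells of both groups were sorted by YFP expressed from the *Foxp3* gene, so these levels do not measure whether *Foxp3* expression was kept. Of the deleted genes, *Tet2* was at 10.4, 10.4 and 10.8 CPM in WT against 11.4, 7.69 and 12.8 CPM in DKO. Levels of *Tet3* were 69, 86.5 and 78.2 CPM in WT against 68.5, 48.4 and 73.3 CPM in DKO (edgeR's adjusted p = 1 and 0.368). Whole-gene counts include the exons outside the deleted part, so they do not check the deletion. *Tet1*, the remaining member of the family, was not called either (adjusted p = 0.284).

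A gene was called when edgeR's quasi-likelihood test gave a p, adjusted by the Benjamini-Hochberg method, no greater than 0.05 and the fold change was at least 1.5. Of 16784 genes tested, 11.9% were called, 8.5% higher in DKO (1426 genes) and 3.43% lower (575 genes). Counts of list members below are to be set beside these shares. The median log2 fold change over all genes was 0.0045. In 40.5% of all genes tested the 3 DKO libraries did not overlap the 3 WT libraries, so that separate groups, where given below, are a description. Genes that rose were mostly low in WT cells, and genes that fell were mostly expressed. The median WT level was 2.30 CPM for genes called higher and 29.2 CPM for genes called lower, against 9.42 CPM for all genes. Among genes called higher, 549 had a mean below 1 CPM in WT, 131 had no reads in any WT library, and 41 went from below 1 CPM to at least 10 CPM. Among genes called lower, 397 had a WT mean of at least 10 CPM and 90 fell to below 1 CPM. A fold change of at least 4 was reached by 658 higher and 97 lower genes. The count of higher genes was 946 without WT replicate 1 and 934 without WT replicate 2. All 6 omissions of a library left 767 higher and 295 lower genes called. Of 12 general T cell genes, 0 were called higher and 4 lower, and this count of lower genes was 4 in all 6 omissions of a library. The 4 were *Cd5*, an inhibitory receptor, *Lat* and *Cd247*, an adaptor and a chain of T cell receptor signalling, and *Thy1*, with log2 fold changes of -0.86, -0.80, -0.85 and -1.20.

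**Figure D1:**
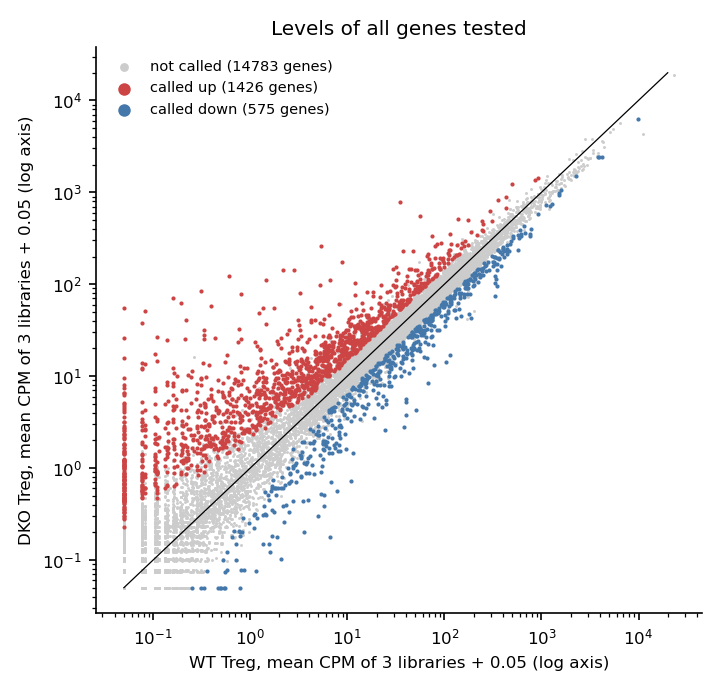
Mean level in WT (x axis) and DKO (y axis) mLN Treg cells, in CPM plus 0.05 on log axes, one point per gene for 16784 genes, with genes called higher and lower in colour. The 1426 higher genes reach far to the left, with a median WT level of 2.30 CPM, and the 575 lower genes lie among expressed genes, with a median of 29.2 CPM.

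DKO libraries differed among themselves more than WT libraries. Among 8070 genes with at least 10 CPM in both groups, the median coefficient of variation was 8.76% in DKO and 5.25% in WT libraries, and 5899 of these genes varied more in DKO. Of 111 genes below 1 CPM in WT whose DKO mean reached 5 CPM, 6 had at least 90% of their DKO level in a single library. *Slpi*, a protease inhibitor, reached 248 CPM and *Dcn*, the proteoglycan decorin, 24.1 CPM in DKO replicate 2 alone. The neuropeptide gene *Npy* was at 73.7 CPM in DKO replicate 1 and at or below 0.252 CPM in the other 5 libraries, and *Ecel1*, an endothelin-converting enzyme relative, was at 47.6 CPM in the same library. *Fcer1g*, the signalling chain of Fc receptors, was at 36.8 CPM in DKO replicate 3 and at or below 0.0822 CPM elsewhere. *Mzb1*, a gene of antibody-secreting cells, was at 47.1 CPM in DKO replicate 2. These 6 genes were picked out by this share, after their values were seen. *Slpi*, *Npy*, *Ecel1* and *Fcer1g* were called, but not without the library that held them (edgeR's adjusted p = 0.599, 0.804, 0.136 and 0.61).

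The 30 genes of the next paragraphs were the 15 with the largest rise and the 15 with the largest fall among called genes that averaged 10 CPM or more in whichever group was higher and whose groups did not overlap. Several of those that rose were at or near 0 in WT cells. *Sulf2*, an enzyme that removes sulfate from heparan sulfate outside the cell, was at 0, 0 and 0.0984 CPM in WT against 97.8, 9.06 and 46.1 CPM in DKO. *Sdc2*, a heparan sulfate proteoglycan, went from 0.0822, 0.248 and 0.0984 CPM to 125, 30.8 and 33.4 CPM, and *Fbn2*, a fibrillin of elastic microfibrils, from 0.164, 0.165 and 0 CPM to 102, 40.8 and 69.3 CPM. DKO libraries differed among themselves by up to an order of magnitude. The log2 fold change was 10.34 ± 1.38 (SE) for *Sulf2*, 8.66 ± 0.77 for *Sdc2* and 9.13 ± 0.94 for *Fbn2* (edgeR's adjusted p = 0.000413, 5.38e-05 and 0.00011), on a scale set by the prior count where WT libraries had few reads. Single libraries moved 2 of these values, that of *Sulf2* to 9.45 without DKO replicate 1 and 12.31 without WT replicate 3, and that of *Sdc2* to 7.69 without DKO replicate 1 and 9.30 without WT replicate 2. *Sulf2* (chromosome 2, 165898589 to 165981163) and *Sdc2* (chromosome 15, 32850478 to 32964485) are placed by the NCBIM37 assembly.

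*Spry2* rose from 0.0822, 0 and 0 CPM to 19.3, 9.92 and 12.1 CPM (8.46 ± 0.66, adjusted p = 2.16e-05, edgeR; 10.40 without WT replicate 1), with DKO libraries closer together than in the genes just named. The potassium channel gene *Kcnk1* was at 0, 0.0827 and 0 CPM in WT against 46.8, 2.23 and 63.7 CPM in DKO, so that DKO replicate 2 was much lower than its group. *Col5a3*, a fibrillar collagen chain, *Olfm1*, a secreted olfactomedin of neurons, *Htr7*, a serotonin receptor, *Frem2*, a basement membrane protein, and *Ccl3*, a chemokine, also rose, with log2 fold changes between 7.74 and 8.43. Leaving out WT replicate 2 moved *Kcnk1* from 9.90 to 11.84, *Htr7* from 8.25 to 10.19 and *Frem2* from 7.98 to 10.72, while *Kcnk1* and *Frem2* were at 9.29 and 7.33 without DKO replicate 3 and *Htr7* at 7.6 without DKO replicate 1. *Spon1*, a secreted matrix protein, *Sh2d1b1* and *Ntng1* had no reads in WT and were at least 208-fold, 99.2-fold and 59.6-fold higher in DKO, against the floor of 3 counts. *Hapln1* was at 0.575, 0.496 and 0.59 CPM in WT against 54.8, 311 and 3.78 CPM in DKO, and its log2 fold change of 7.78 was 5.70 without DKO replicate 2. *Ccl3*, at 8.43, came to 6.67 without DKO replicate 3 and 10.39 without WT replicate 3. *Vwde* was at 8.02, 11.4 and 60 CPM in DKO, and its call was lost without any of the WT libraries (edgeR's adjusted p = 0.0646 to 0.0674).

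Of the 15 genes that fell, *Il1rl1* was at 39.1, 41.2 and 40.5 CPM in WT against 0.917, 6.97 and 3.36 CPM in DKO (log2 fold change -3.41 ± 0.44, edgeR's adjusted p = 0.000354), and its log2 fold change was -4.25 without DKO replicate 2. *Ccr9*, a receptor that directs T cells to the small intestine, fell from 95.8, 115 and 99 CPM to 16.9, 7.62 and 18.1 CPM (-2.86 ± 0.38, adjusted p = 0.000389, edgeR). The GTPase gene *Gbp2b*, an interferon target, was at 65.3, 70.7 and 66.6 CPM in WT against 12.5, 3.09 and 9.48 CPM in DKO. The lowest DKO level of *Ccr9* and *Gbp2b* was in replicate 2, and that of *Il1rl1* in replicate 1. *Socs2*, an inhibitor of cytokine receptor signalling, fell from 69.4, 85.6 and 80.5 CPM to 13.6, 7.55 and 18.2 CPM (-2.59 ± 0.27, adjusted p = 0.000115, edgeR).

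*Cd8b1*, a CD8 coreceptor chain, fell from 20.5, 19.6 and 15.7 CPM to 3.67, 2.8 and 3.78 CPM, while *Cd8a* was near 0 in all libraries. The lubricin gene *Prg4* was at 115, 121 and 106 CPM in WT against 34.4, 7.62 and 8.47 CPM in DKO, with a log2 fold change of -2.76 that was -3.83 without DKO replicate 1. *Igsf23*, an immunoglobulin superfamily gene, *Sdcbp2*, a syntenin, *Chdh*, a choline dehydrogenase, *Src*, a tyrosine kinase, *Myo3b*, a myosin, and *Dnah7a*, an axonemal dynein with near-identical relatives in the genome, fell as well, by log2 values between -2.31 and -3.26. *Gpld1*, a phospholipase that cuts GPI anchors, *Epas1*, which encodes HIF-2α, and *Klrg1*, a receptor of differentiated lymphocytes, fell by more than these. *Gpld1* and *Klrg1* went to -4.98 without DKO replicate 3 and -4.40 without DKO replicate 2, from -4.03 and -3.59.

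**Figure D2:**
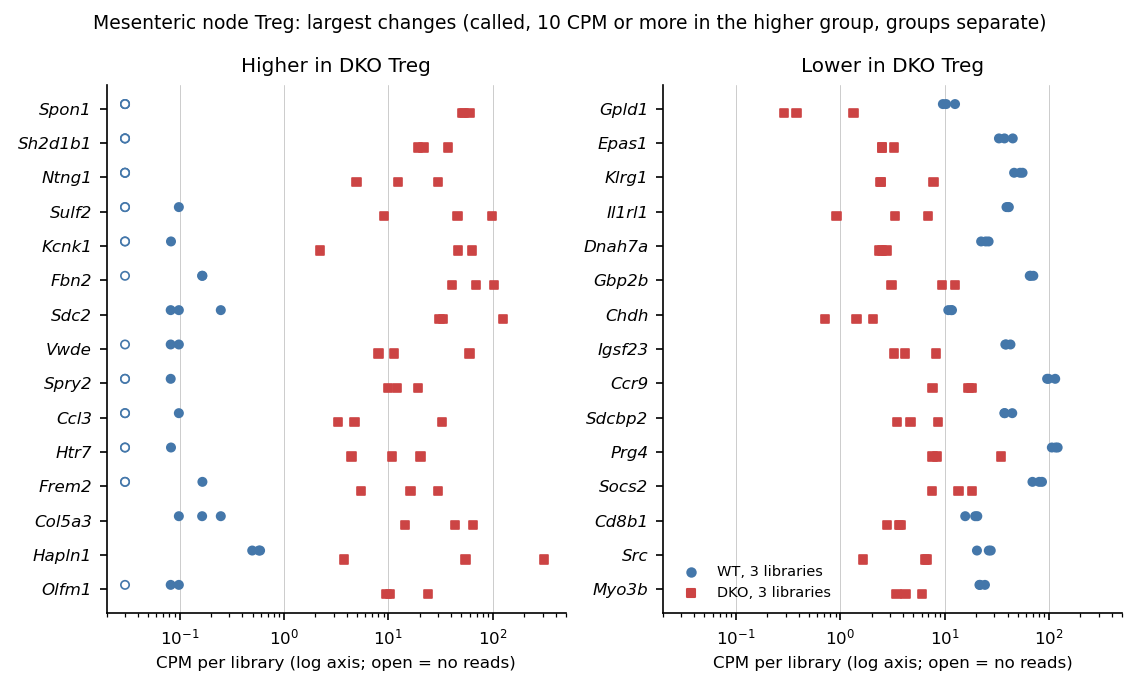
Level in each library, in CPM on a log axis, of the 15 largest gains and the 15 largest losses in DKO mLN Treg cells among called genes that averaged 10 CPM or more in one group and whose groups did not overlap, 3 WT and 3 DKO libraries per gene. Genes that rose lie at or near 0 in WT and spread widely in DKO, as *Hapln1* at 3.78 to 311 CPM, and genes that fell lie close together in WT, as *Il1rl1* at 39.1 to 41.2 CPM.

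Among abundant transcripts, ranked by the deposited TPM, 2 genes of neuronal peptides and growth stood out for their size. *Nrn1*, neuritin, rose from 41.9, 31.8 and 29.9 CPM to 816, 1116 and 402 CPM (4.49 ± 0.67, adjusted p = 0.000818, edgeR). *Penk*, the precursor of enkephalins, rose from 63.4, 54.5 and 50.4 CPM to 430, 903 and 307 CPM (3.28 ± 0.44, adjusted p = 0.000431, edgeR). In both genes DKO replicate 2 was highest and no DKO library came near WT. The calcium-binding protein gene *S100a11* rose from 149, 138 and 129 CPM to 497, 653 and 388 CPM, and *Tagln2*, an actin-binding protein, *Lgals1*, the lectin galectin-1, *Ifi27l2a*, *Pkm* and *Gapdh* rose by less. *Gapdh* (933, 948 and 878 CPM in WT, 1176, 1772 and 1394 CPM in DKO) and *Ifi27l2a* fell short of 1.5-fold without DKO replicate 2 (log2 fold change 0.48 and 0.57), as did *Pkm* (0.52). *S100a10*, with an adjusted p of 0.0494 by edgeR, was lost with DESeq2 (0.0625) and in 5 of the 6 omissions of a library.

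*B2m*, the light chain of MHC class I, fell from 4424, 4213 and 4103 CPM to 2683, 2184 and 2434 CPM (-0.80 ± 0.13, adjusted p = 0.00127, edgeR). The heavy chain gene *H2-K1* fell from 4089, 3900 and 3773 CPM to 2672, 2161 and 2352 CPM (-0.71 ± 0.13, adjusted p = 0.00219, edgeR). Every DKO library was below every WT library in both. *Tpt1*, a translationally controlled growth factor, fell from 10624, 9434 and 9401 CPM to 5957, 6334 and 6399 CPM. Of 44 measured ribosomal protein genes in a fixed list, *Rps23* was the 1 called (log2 fold change -0.62), and 43 of 44 had lower means (median log2 fold change -0.40). At an unadjusted p under 0.05 by edgeR, 38 were lower and 0 higher. Without DKO replicate 1 or WT replicate 1 *Rps23* fell short of 1.5-fold (-0.57 each) and 0 were called, while 4, 3 and 4 were called lower without DKO replicate 3, WT replicate 2 and WT replicate 3. Outside that list *Rps24*, *Rps13* and *Rpl35a* were called lower too, at -0.66, -0.59 and -0.59, and the latter pair fell short of 1.5-fold without DKO replicate 1 (-0.55 and -0.58) or WT replicate 1 (-0.55 and -0.52).

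The genes that define Treg cells split, although the sort by YFP selected cells that expressed *Foxp3*. *Foxp3*, *Il2rb*, *Ikzf2*, *Ctla4*, *Tnfrsf18* and *Tnfrsf4* were not called, whereas *Il2ra*, which encodes the CD25 chain of the IL-2 receptor, was at 703, 797 and 783 CPM in WT against 364, 240 and 450 CPM in DKO (-1.12 ± 0.23, adjusted p = 0.00516, edgeR). Of 22 measured genes of Treg identity, 0 were called higher and 8 lower (36.4%) by edgeR, with a median log2 fold change of -0.38. DESeq2 called 0 higher and 7 lower, and at an unadjusted p under 0.05 0 were higher and 12 lower. The count was 5 without DKO replicate 2 and 5 without WT replicate 2. *Ikzf4*, the transcription factor Eos, fell from 68, 76.7 and 71.4 CPM to 27.6, 27.8 and 25.1 CPM (-1.42 ± 0.19, adjusted p = 0.000397, edgeR). *Nrp1*, a semaphorin and VEGF coreceptor, fell from 346, 341 and 308 CPM to 103, 94.4 and 114 CPM (-1.68 ± 0.19, adjusted p = 0.000166, edgeR). The G protein-coupled receptor gene *Gpr83* and *Lrrc32*, which encodes GARP and displays latent TGF-β on the surface, fell by -1.41 and -1.28. The integrin gene *Itgae* (CD103) was at 332, 389 and 308 CPM in WT against 106, 98.5 and 137 CPM in DKO, but its call was lost without DKO replicate 1 or 2 or WT replicate 1 or 2 (edgeR's adjusted p = 0.052 to 0.066) and with DESeq2 (0.104).

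Molecules of suppression moved both ways. Of 27 measured, 6 were called higher and 5 lower. *Entpd1*, the ectoenzyme CD39 that breaks down extracellular ATP, fell from 69.5, 71.7 and 63.6 CPM to 19.4, 18.8 and 28.3 CPM (-1.63 ± 0.40, adjusted p = 0.0129, edgeR), and *Sema4a*, a ligand of Nrp1, from 49.1, 35.2 and 44.8 CPM to 9.47, 8.27 and 14.5 CPM. *Lgals1* rose, while *Icos*, a costimulatory receptor, at 353, 363 and 359 CPM in WT against 781, 954 and 745 CPM in DKO, lost its call in all 6 omissions (edgeR's adjusted p = 0.06 to 0.115). *Il10*, a suppressive cytokine, was at 17.8, 19.9 and 22.2 CPM in WT against 3.21, 2.95 and 19.6 CPM in DKO, with 2 low DKO libraries and 1 at the WT level, and was not called (adjusted p = 0.282, edgeR). The count of higher genes was 2 without WT replicate 2 and 3 without WT replicate 3.

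Effector and tissue Treg genes also split, with 6 of 30 called higher and 8 lower. *Batf*, a factor of tissue Treg cells, rose from 66.2, 72.7 and 67.2 CPM to 158, 123 and 125 CPM (0.98 ± 0.17, adjusted p = 0.00207, edgeR), and *Hif1a*, the oxygen-regulated factor HIF-1α, from 499, 508 and 493 CPM to 1368, 1218 and 1064 CPM (1.28 ± 0.31, adjusted p = 0.0119, edgeR). *Prdm1*, the repressor Blimp-1, fell from 36.6, 34.7 and 36 CPM to 9.7, 15.3 and 17.6 CPM (-1.33 ± 0.31, adjusted p = 0.0092, edgeR). *Ahr*, the aryl hydrocarbon receptor, and *Il9r*, the IL-9 receptor, fell by -1.33 and -2.02. *Il1rl1* and *Klrg1*, described above, belong to the same list. The lower levels of *Prdm1*, *Ahr*, *Il1rl1*, *Klrg1* and *Ccr9* were therefore seen beside higher *Batf*, and each of these genes was called after every omission of a library.

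Genes of resting and of activated T cells were counted next. Of 29 measured resting genes 0 were called higher and 9 lower by edgeR (median log2 fold change -0.73), and 0 and 10 by DESeq2. At an unadjusted p under 0.05, 1 was higher and 16 lower. The lower count was 5 without DKO replicate 2, 5 without WT replicate 1 and 16 in the fit of only the Treg libraries. *Bcl2*, a survival protein, fell from 232, 242 and 249 CPM to 126, 102 and 150 CPM (-0.93 ± 0.12, adjusted p = 0.000413, edgeR). The quiescence factor gene *Klf2* and the oxysterol receptor gene *Gpr183* fell by -0.74 and -1.03. Of 35 activation and effector genes, 14 were called higher and 2 lower. *Pdcd1*, which encodes the inhibitory receptor PD-1, rose from 101, 94.8 and 79.7 CPM to 295, 256 and 302 CPM (1.63 ± 0.28, adjusted p = 0.00188, edgeR). *Bhlhe40*, a transcription factor of cytokine-producing T cells, rose from 74.3, 73.3 and 76.8 CPM to 487, 318 and 205 CPM (2.17 ± 0.39, adjusted p = 0.00225, edgeR). The cytotoxic granule gene *Nkg7*, the calcium-binding protein gene *S100a4* and the membrane-binding protein gene *Anxa2* rose by 1.77, 1.69 and 2.63.

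Receptors of natural killer (NK) cells changed in both directions. Of 33 measured, 11 were called higher and 3 lower (median log2 fold change 1.81), and their summed level was 875 to 949 CPM in WT and 824 to 930 CPM in DKO libraries. *Klrb1c*, which encodes NK1.1 in C57BL/6 mice, rose from 6.41, 8.19 and 5.02 CPM to 155, 72.3 and 110 CPM (4.09 ± 0.51, adjusted p = 0.000278, edgeR), and *Klrb1a*, a relative in the same cluster, from 0.247, 0.248 and 0 CPM to 39.9, 20.9 and 16 CPM (7.12 ± 0.91, adjusted p = 0.000339, edgeR). Every DKO library was above every WT library. *Klrb1b* and *Crtam*, an adhesion receptor of cytotoxic cells, rose by 3.23 and 3.41. The *Klrb1* genes and the *Sh2d1b1* and *Sh2d1b2* genes are near-identical pairs or families, so reads may be split among them. *Cd160* was at 29.6, 19.8 and 107 CPM in DKO against 13.8 to 14.8 CPM in WT, and its log2 fold change of 1.85 was 0.77 without DKO replicate 3, where it was not called (adjusted p = 0.121, edgeR). *Cd226*, an activating receptor, fell from 86.4, 85.2 and 78.3 CPM to 37, 17.2 and 39.8 CPM. *Cd96*, its relative, was called lower but lost without DKO replicate 2 or WT replicate 1 or 2 (edgeR's adjusted p = 0.0524 to 0.0706).

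Markers of NK cells were measured beside these receptors. Of 9 measured NK cell markers 2, *Klrb1c* and *Klri2*, were called higher and 0 lower by edgeR (3 and 0 by DESeq2, 5 and 0 at an unadjusted p under 0.05). Means were higher in DKO for 8 of the 9, and the median log2 fold change was 1.81. *Ncr1*, which defines NK cells, was at 0.917 CPM or less in every library, and *Klra8* and *Klra9* at 0.0719 CPM or less. The summed level of the 9 markers was 23.4 to 28.8 CPM in WT and 99.3 to 186 CPM in DKO libraries, most of it in DKO from *Klrb1c*. The part of NK cells in the rise of these receptors was not tested.

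Secreted ligands moved both ways. Of 32 measured effector cytokines and chemokines, 11 were called higher and 6 lower (median log2 fold change 1.52). The count of higher genes was 6, 7 and 7 without WT replicates 1, 2 and 3, and that of lower genes 3 without DKO replicate 2, 2 without WT replicate 2 and 3 without WT replicate 3. *Lif*, a cytokine of the IL-6 family, rose from 8.14, 6.95 and 9.64 CPM to 49.8, 74.2 and 59 CPM (2.89 ± 0.41, adjusted p = 0.000593, edgeR). *Ccl4*, an inflammatory chemokine, went from 0.164, 0.331 and 0.295 CPM to 6.34, 3.23 and 18.2 CPM, and *Spp1*, osteopontin, from 0.164, 0.331 and 0.295 CPM to 5.96, 4.46 and 13.3 CPM. The log2 fold changes of *Ccl4* and *Spp1*, 5.09 and 4.86, were 4.14 and 4.26 without DKO replicate 3. *Il21*, a cytokine that helps B cells, was at 4.44, 4.63 and 2.85 CPM in WT against 34.8, 9.27 and 32.2 CPM in DKO, and lost its call without WT replicate 1 or 3 (edgeR's adjusted p = 0.0504 and 0.0648). *Ifng*, *Il4* and *Il2* were not called. The adjacent genes of the lymphotoxin and TNF locus fell together: *Lta* from 39.1, 49.4 and 51.7 CPM to 23, 9.34 and 18.8 CPM (-1.46 ± 0.30, adjusted p = 0.00485, edgeR) and *Ltb* from 644, 678 and 641 CPM to 453, 430 and 409 CPM (-0.60 ± 0.09), the latter below 1.5-fold without DKO replicate 3 or WT replicate 2 (-0.57 and -0.58).

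Cytokine receptors fell more often than they rose, with 6 of 38 called higher and 12 lower (median log2 fold change -0.30). The list also holds *Csf1*, the ligand of the macrophage growth factor receptor, which rose from 29.5, 32.2 and 26.4 CPM to 173, 130 and 132 CPM and lost its call without each WT library (edgeR's adjusted p = 0.065 to 0.08). Receptors of the IL-1 family went in opposite directions. *Il1r2*, the decoy receptor of IL-1, was at 55.6, 47 and 39.4 CPM in WT against 234, 249 and 202 CPM in DKO (2.27 ± 0.55, adjusted p = 0.0121, edgeR), although its call was lost without WT replicate 2 or 3 (0.0517 and 0.061). *Il1r1*, its signalling counterpart, was at 3.04, 2.23 and 2.07 CPM in WT against 11.8, 11.9 and 72.5 CPM in DKO, with a log2 fold change of 3.70 that was 2.27 without DKO replicate 3. *Il18r1*, the IL-18 receptor, fell from 108, 114 and 82.8 CPM to 28.7, 36.4 and 40.4 CPM (-1.53 ± 0.23, adjusted p = 0.000934, edgeR), beside the fall of the IL-33 receptor.

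*Il17rb*, the receptor of IL-25, fell from 7.48, 8.1 and 7.97 CPM to 0.382, 0.144 and 1.01 CPM (-3.95 ± 0.47, adjusted p = 0.000201, edgeR), and by -4.86 without DKO replicate 3. The receptor of IL-23, *Il23r*, rose from 3.45, 3.14 and 2.26 CPM to 28.9, 9.7 and 18.5 CPM (2.68 ± 0.55, adjusted p = 0.00511, edgeR), and that of IL-12, *Il12rb2*, from 0.329, 0.165 and 0.59 CPM to 6.64, 3.09 and 6.38 CPM (3.89 ± 0.62, adjusted p = 0.00121, edgeR). In these 3 genes the DKO libraries did not overlap WT, as in 40.5% of all genes. *Osmr*, a receptor of oncostatin M, had no reads in WT and was at least 17.7-fold higher in DKO.

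Inhibitors downstream of cytokine receptors fell with *Il2ra*. *Cish*, a target of STAT5 and inhibitor of cytokine signalling, fell from 141, 186 and 205 CPM to 38, 41.2 and 64.6 CPM (-1.89 ± 0.19, adjusted p = 0.000103, edgeR). *Socs2* is described above. *Stat3*, *Stat5a* and *Stat6* were not called. *Stat5b* was lower by a log2 value of -0.40 (adjusted p = 0.00311, edgeR), below the minimum fold. The repressor gene *Bcl6* rose from 27.4, 27.1 and 28.4 CPM to 106, 66.8 and 83.7 CPM (1.62 ± 0.22, adjusted p = 0.000464, edgeR), and the kinase gene *Pim2* by 1.21. In all, 2 of 29 genes of STAT signalling and its inhibitors were called higher and 5 lower, beside 8.5% and 3.43% of all genes. The lower count was 3 without DKO replicate 2 and 3 without WT replicate 3.

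**Figure D3:**
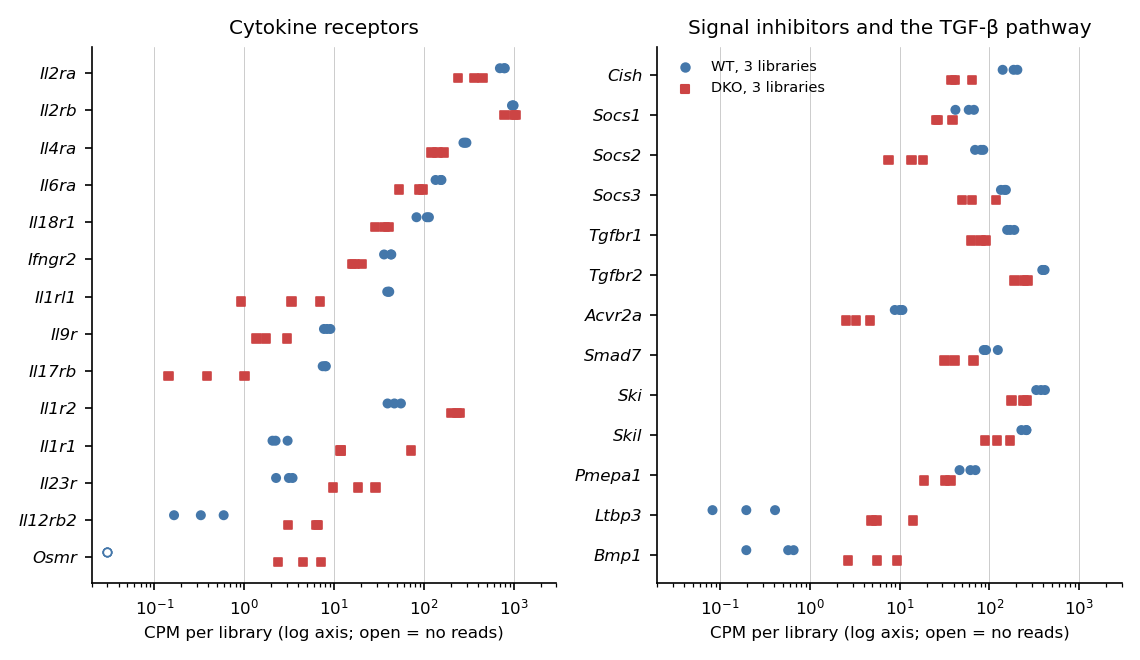
Level in each library, in CPM on a log axis, of cytokine receptors and of signalling inhibitors and TGF-β pathway genes in WT and DKO mLN Treg cells, 3 libraries each. *Il12rb2* and *Il23r* stand higher in every DKO library, while *Il17rb*, *Il18r1* and *Cish* stand lower, the last at 38 to 64.6 CPM against 141 to 205 CPM.

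Genes of the TGF-β pathway, which supports Treg cells, were called lower in 13 of 39 cases and higher in 6 (median log2 fold change -0.32). The receptor gene *Tgfbr1* fell from 158, 171 and 190 CPM to 91.7, 62 and 79.8 CPM (-1.15 ± 0.14, adjusted p = 0.000235, edgeR), and the activin receptor gene *Acvr2a* from 10.8, 10 and 8.85 CPM to 4.66, 2.52 and 3.27 CPM (-1.50 ± 0.24, adjusted p = 0.00109, edgeR). *Ltbp3*, which binds latent TGF-β in the matrix, rose from 0.411, 0.0827 and 0.197 CPM to 14.1, 4.89 and 5.54 CPM (5.08 ± 0.85, adjusted p = 0.00159, edgeR), and went to 4.43 without DKO replicate 1 and 5.81 without WT replicate 1. The procollagen protease gene *Bmp1* and the ligand gene *Tgfb3* rose by 3.57 and 2.28. *Smad2*, *Smad3* and *Smad4*, the signal transducers, were not called. *Smad7*, an inhibitor of the pathway, at -1.12, lost its call in 5 of the 6 omissions (edgeR's adjusted p = 0.0719 to 0.151). Without DKO replicates 1 and 2 and WT replicates 1, 2 and 3 the count of lower genes was 7, 6, 7, 6 and 7, and that of higher genes 3 without WT replicate 2.

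Of 32 chemokine receptors and related homing genes, 4 were called higher and 6 lower, beside 8.5% and 3.43% of all genes. The higher count was 6 without DKO replicate 1 and 3 in the other 5 omissions, and the lower count 3 without WT replicate 3. *Cx3cr1*, the fractalkine receptor of cytotoxic and tissue cells, was at 0.0822, 0.579 and 0.492 CPM in WT against 3.06, 38.2 and 36.9 CPM in DKO (6.06 ± 0.99, adjusted p = 0.00133, edgeR), with DKO replicate 1 an order of magnitude below its group. *Ccr1*, an inflammatory receptor, was at 4.6, 1.57 and 2.95 CPM in WT against 7.41, 23.5 and 45.1 CPM in DKO, with a log2 fold change of 3.05 that was 2.34 without DKO replicate 3. *Cxcr4*, a bone marrow homing receptor, rose by 0.96, and the prostaglandin receptor gene *Ptger4* fell by -1.08. *Ccr8* and *Ccr2* were not called.

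Of 29 coinhibitory genes, 9 were called higher, 5 without WT replicate 2, and 5 lower, 3 without DKO replicate 2. *Rnf128*, the ubiquitin ligase GRAIL of anergic T cells, rose from 6.57, 5.13 and 5.31 CPM to 46.7, 38.8 and 39.4 CPM (2.87 ± 0.50, adjusted p = 0.00198, edgeR). The scavenger-type receptors *Cd5* and *Cd6*, which dampen T cell receptor signals, fell from 614, 618 and 606 CPM to 344, 347 and 323 CPM and from 565, 599 and 558 CPM to 240, 219 and 254 CPM (-0.86 ± 0.12 and -1.27 ± 0.17, adjusted p = 0.000457 and 0.000385, edgeR). *Thy1*, a surface protein of all T cells, fell as well, from 793, 772 and 748 CPM to 355, 303 and 351 CPM (-1.20 ± 0.11, adjusted p = 7.05e-05, edgeR). In *Cd5*, *Cd6* and *Thy1* the replicates of each group lay close together. Of 34 TNF family ligands and receptors, 8 were called higher and 5 lower. Those counts rest on single libraries, being 5, 4, 2 and 3 higher without DKO replicate 1 and WT replicates 1, 2 and 3, and 3, 3, 2 and 3 lower without DKO replicates 2 and 3 and WT replicates 2 and 3. *Tnfrsf9* (4-1BB) was at 202, 181 and 180 CPM in WT against 369, 454 and 275 CPM in DKO and lost its call without DKO replicate 2 or WT replicate 2 or 3 (edgeR's adjusted p = 0.0518 to 0.0543).

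**Figure D4:**
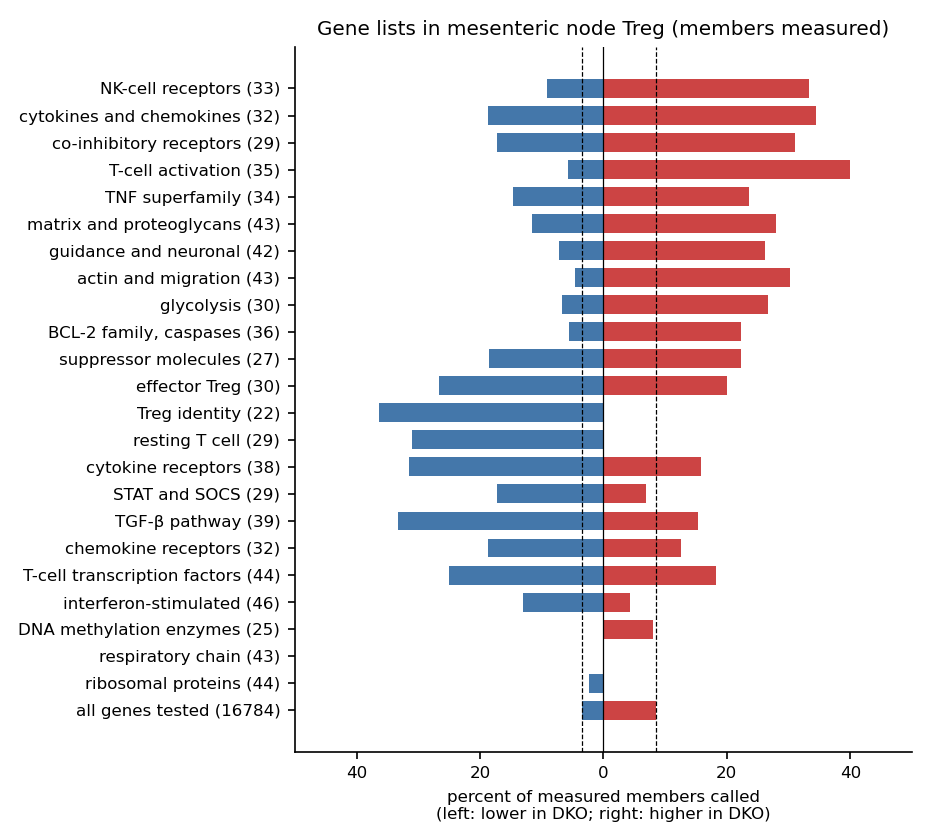
Percent of the measured genes of each functional list called lower (left) and higher (right) in DKO mLN Treg cells, with dashed lines at the shares of all 16784 genes, 3.43% and 8.5%. Resting, Treg identity and ribosomal protein genes have bars to the left alone, the last with 1 of 44 genes, activation, cytokine and NK receptor genes have long bars to the right, and the respiratory chain (oxidative phosphorylation) has none.

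Genes of metabolism were counted by pathway. Of 30 glycolysis genes, 8 were called higher and 2 lower, although 3 were called higher without DKO replicate 2 (median log2 fold change 0.19). *Tpi1*, triosephosphate isomerase, rose from 113, 111 and 114 CPM to 264, 454 and 349 CPM (1.65 ± 0.28, adjusted p = 0.00156, edgeR), and *Pgam1*, phosphoglycerate mutase, from 118, 122 and 114 CPM to 227, 321 and 268 CPM (1.20 ± 0.16, adjusted p = 0.000413, edgeR). The hexokinase gene *Hk2* and the lactate transporter gene *Slc16a3* rose by 1.45 and 1.94, and *Eno3* and *Ldhb*, isoforms of enolase and lactate dehydrogenase, fell by -0.94 and -0.74. DKO replicate 2 was the highest library for *Tpi1* and *Pgam1*. Of 43 oxidative phosphorylation genes, 0 were called in either direction by edgeR or by DESeq2, 3 were higher and 2 lower at an unadjusted p under 0.05, and their median log2 fold change was 0.05.

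*Odc1*, ornithine decarboxylase, which makes putrescine, had replicates close together in both groups. *Odc1* rose from 170, 171 and 180 CPM to 519, 510 and 458 CPM (1.51 ± 0.08, adjusted p = 1.13e-06, edgeR). *Fads2*, a desaturase of polyunsaturated fatty acids, rose from 0.164, 0.248 and 0.197 CPM to 14.7, 8.55 and 10.4 CPM (5.72 ± 0.70, adjusted p = 0.000241, edgeR). Of 40 genes of amino acid and one-carbon metabolism, the list that holds *Odc1*, 6 were called higher and 1 lower, beside 8.5% and 3.43% of all genes. The lower count was 0 without DKO replicate 1 or 2 or WT replicate 2 or 3 and 2 without WT replicate 1. The amino acid synthesis genes *Asns* and *Psat1*, for asparagine and serine, rose by 1.91 and 0.98. *Pde2a*, a phosphodiesterase of cyclic AMP and cyclic GMP, fell from 184, 194 and 189 CPM to 33.8, 48.8 and 47.1 CPM (-2.13 ± 0.14, adjusted p = 1.13e-05, edgeR).

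Regulators of cell death changed in both directions of their function. Of 36 measured, 8 were called higher and 2 lower, 1 without DKO replicate 2 or WT replicate 1. *Pmaip1*, the killer protein NOXA, rose from 10.7, 11.7 and 9.05 CPM to 53.5, 39.1 and 34.2 CPM (2.01 ± 0.37, adjusted p = 0.00276, edgeR), and *Casp4*, an inflammatory caspase, from 37, 32.4 and 31.3 CPM to 148, 131 and 116 CPM (1.97 ± 0.27, adjusted p = 0.000464, edgeR). *Bcl2a1a*, *Bcl2a1b* and *Bcl2a1d*, which code for protective relatives of Bcl-2, rose too, but the copies are so alike that reads cannot be assigned with certainty. *Bcl2* itself fell, as given above.

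Adhesion and matrix genes included losses with little spread between replicates. *Itga6*, the laminin receptor chain α6, was at 336, 336 and 336 CPM in WT against 68.3, 66.8 and 87.9 CPM in DKO (-2.18 ± 0.15, adjusted p = 1.13e-05, edgeR). *Ecm1*, extracellular matrix protein 1, which is also made by T cells, fell from 151, 145 and 150 CPM to 36.4, 54.2 and 43 CPM (-1.74 ± 0.16, adjusted p = 5.78e-05, edgeR). No DKO library came near WT in either gene. Of 26 integrins 6 were called higher and 3 lower, and the higher count was 3, 3, 2 and 2 without DKO replicate 2 and WT replicates 1, 2 and 3. *Itgam* (CD11b), at 0.822, 0.496 and 0.689 CPM in WT against 2.98, 17.5 and 5.87 CPM in DKO, had a log2 fold change of 3.70 that was 2.70 without DKO replicate 2.

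Markers of myeloid cells were mostly absent beside *Itgam*. *C1qa*, *C1qb*, *C1qc*, *Csf1r* and *Adgre1* were near 0, and the summed level of the 19 measured markers was 623 to 680 CPM in WT and 394 to 466 CPM in DKO. Of these markers 3 (*Itgam*, *Itgax* and *Cd68*) were called higher and 1 (*Ctss*) lower, and means were higher in DKO for 12 and lower for 6. *Cd68*, a lysosomal protein, rose from 1.4, 1.57 and 1.18 CPM to 10.8, 6.25 and 10.7 CPM. Of 43 matrix and proteoglycan genes, 12 were called higher and 5 lower (median log2 fold change 1.26). *Fn1*, fibronectin, was at 0.411, 0.331 and 0.295 CPM in WT against 3.28, 12 and 1.93 CPM in DKO, with a log2 fold change of 4.01 that was 2.87 without DKO replicate 2. Of 12 measured stromal markers 4 (*Pdgfra*, *Pdgfrb*, *Lum* and *Madcam1*) were called higher and 1 (*Col1a2*) lower. Means were higher in DKO for 10 of the 12 and lower for 2, and the median log2 fold change was 2.59. The summed level of these markers was 1.57 to 3.12 CPM in WT and 15.3 to 36.2 CPM in DKO, and *Col3a1*, *Ccl19*, *Bgn* and *Cxcl13* were near 0. *Pdgfrb*, a receptor of stromal cells, went from 0.164, 0 and 0.197 CPM to 4.28, 1.72 and 10.8 CPM, with a log2 fold change of 5.46 that was 4.56 without DKO replicate 3. The part of stromal and myeloid cells in these values was not tested.

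Of 42 genes best known from axon guidance and neurons, 11 were called higher, 7 without WT replicate 3, and 3 lower, 6 without DKO replicate 3. *Ntrk3*, the receptor of neurotrophin-3, rose from 6.33, 4.96 and 4.43 CPM to 153, 81.3 and 57.6 CPM (4.21 ± 0.65, adjusted p = 0.000979, edgeR). *Plxnb2*, a plexin that binds class 4 semaphorins, rose from 4.03, 4.47 and 4.03 CPM to 48.7, 45.8 and 28.3 CPM (3.29 ± 0.67, adjusted p = 0.00463, edgeR), and *Alcam*, an adhesion molecule that binds CD6, from 18.2, 13.4 and 16 CPM to 94.3, 93.8 and 60.2 CPM (2.38 ± 0.54, adjusted p = 0.00833, edgeR). The DKO libraries stood above WT in each gene. The 3 that fell were *Nrp1*, *Sema4a* and *Sema4b*. Of 43 genes of actin and migration, 13 were called higher, 8 without DKO replicate 2 or WT replicate 1 or 3, and 2 lower, 1 without DKO replicate 1 or 3 or WT replicate 2 or 3.

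Transcription factors of T cells were called in 19 of 44 cases, 8 higher and 11 lower. *Pou2af1*, a coactivator of octamer factors best known from B cells, rose from 13.6, 10.8 and 11.5 CPM to 146, 64.8 and 97.1 CPM (3.10 ± 0.34, adjusted p = 0.00013, edgeR). *Hopx*, a homeodomain-only protein of induced Treg and effector cells, fell from 134, 127 and 134 CPM to 44, 33.9 and 49.2 CPM (-1.63 ± 0.14, adjusted p = 5.31e-05, edgeR). *Ikzf3*, the factor Aiolos, fell from 333, 334 and 329 CPM to 156, 137 and 210 CPM (-0.99 ± 0.15, adjusted p = 0.00088, edgeR), and *Runx3* rose by 0.74. Beside *Pou2af1*, the B cell kinase gene *Blk* was at 0.493, 0.992 and 0.689 CPM in WT against 26.6, 7.04 and 64.7 CPM in DKO, with a log2 fold change of 5.47 that was 4.51 without DKO replicate 3. *Ms4a1*, which encodes CD20 and defines B cells, was at or below 0.503 CPM in every library. Of 14 B cell markers 4 (*Blk*, *Pax5*, *Ebf1* and *Cd22*) were called higher and 1 (*Cd79b*) lower, 11 had higher means in DKO, and the median log2 fold change was 2.15. *Cd22*, at 2.04, lost its call without DKO replicate 3 (1.16) and with any 1 WT library left out, and *Cd79b* in 5 of the 6 omissions. The sum of the markers was 54.1 to 66.5 CPM in WT and 56.7 to 123 CPM in DKO. *Blk* was also the 1 called higher of 3 measured markers of γδ T cells, whose sum was 0.986 to 2.32 CPM in WT and 8.84 to 65.9 CPM in DKO, most of it from *Blk*. The part of B cells or γδ T cells in the rise of *Pou2af1* and *Blk* was not tested.

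Clock genes showed clear single changes. *Bhlhe41*, a repressor of clock genes related to *Bhlhe40*, rose from 0.493, 0.496 and 0.492 CPM to 12.7, 16.5 and 14 CPM (4.84 ± 0.64, adjusted p = 0.000402, edgeR). *Hlf*, a clock-controlled factor, fell from 9.12, 8.52 and 7.57 CPM to 1.76, 1.29 and 1.43 CPM (-2.49 ± 0.32, adjusted p = 0.000372, edgeR). *Npas2* rose by 2.62 and *Dbp* fell by -0.88. Sampling time is not given in the labels. In all 3 of 19 circadian genes were called higher and 3 lower, beside 8.5% and 3.43% of all genes.

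Of 25 genes of DNA methylation, 2 were called higher and 0 lower by edgeR and by DESeq2 (3 and 4 at an unadjusted p under 0.05). By edgeR 8% of this list was called, beside 11.9% of all genes. The 2 were *Uhrf1*, which brings the maintenance methyltransferase to replicated DNA, at 33.6, 39.9 and 45.3 CPM in WT against 85.7, 108 and 109 CPM in DKO (1.35 ± 0.14, adjusted p = 0.000103, edgeR), and *Cxxc5*, a CXXC domain protein that binds CpG, at 6.74, 5.79 and 6.79 CPM in WT against 32.8, 16.5 and 34.9 CPM in DKO (2.12 ± 0.34, adjusted p = 0.00125, edgeR). The 29 of 30 cell cycle genes called higher (median log2 fold change 1.41) were measured in the same libraries as *Uhrf1*. *Hells*, a chromatin remodeler of replicating cells, and *Hdac4*, a histone deacetylase, rose by 1.07 and 0.72, and the deacetylase gene *Sirt1* fell by -0.68. Of 12 germline genes that are silenced by promoter methylation in somatic cells, 0 were called in either direction by edgeR or DESeq2, and at an unadjusted p under 0.05 0 were higher and 2 lower. Of 29 imprinted genes 5 were called, 2 higher and 3 lower, beside 11.9% of all genes. Without DKO replicate 2 these were 1 and 2, and without WT replicate 1 or 2 also 1 and 2. *Plagl1*, an imprinted zinc finger factor, fell from 13.9, 14.2 and 13.9 CPM to 4.66, 4.53 and 4.7 CPM (-1.59 ± 0.35, adjusted p = 0.0076, edgeR).

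Of 46 interferon-stimulated genes, 2 were called higher and 6 lower, beside 8.5% and 3.43% of all genes (median log2 fold change -0.12). The 2 were *Mx1* and *Rsad2*, and the count of higher genes was 1 without DKO replicate 1 and 0 without DKO replicate 3 or with any 1 WT library left out. Without DKO replicate 2 the count of lower genes was 3. *Gbp3*, a GTPase of host defence, fell from 119, 116 and 104 CPM to 55.6, 46.2 and 71.1 CPM (-0.97 ± 0.18, adjusted p = 0.00296, edgeR). Genes of NF-κB, cholesterol synthesis, heat shock, hypoxia and endoplasmic reticulum had 1 to 4 called members each, beside 11.9% of all genes. With a library left out these counts were 0 to 5, the 5 being NF-κB genes without DKO replicate 3, from 1 with all libraries, and hypoxia genes without DKO replicate 1, from 4. Of 30 immediate early genes of T cell receptor signalling, 4 were called higher and 2 lower, beside 8.5% and 3.43% of all genes. The lower count was 4 without DKO replicate 2, 1 without WT replicate 2 and 6 with the replicate block.

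Called genes often lay beside each other on the chromosomes. Of 1325 higher genes placed on NCBIM37, 25.4% had a direct neighbour that was also called higher, as did 16.8% of all placed genes. Of 530 lower genes, 16.04% had a neighbour called lower, as did 6.88% of all placed genes. There were 30 runs of at least 3 adjacent genes called in the same direction, 25 of them higher. A run on chromosome 1 from 40133073 to 40373043 holds *Il1r2* and *Il1r1*, and the *Klrb1* genes form a run on chromosome 6 from 128656526 to 128776349. *Itgam*, *Itgax* and *Itgad* lie together on chromosome 7, *S100a4*, *S100a5* and *S100a6* on chromosome 3, and *Ltb*, *Tnf* and *Lta*, which fell, on chromosome 17 from 35331384 to 35342296. Related neighbours can share reads as well as regulation, and the part of either was not tested. These shares are descriptions.

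Genes that came on from silence had fewer CpG-rich promoters than genes that were already expressed. A promoter was called CpG-rich when the 300 bases around the start had a ratio of observed to expected CpG of at least 0.6 and a GC content of at least 50%. The share was 38.3% of 120 genes called higher with no WT reads, 44.4% of 502 higher genes with a WT mean below 1 CPM and 66.0% of 823 higher genes above that level. Among genes not called it was 30.4% where the WT mean was below 1 CPM. It was 67.6% where the mean of the higher group was 1 CPM or more, a set that overlaps the first. Below 1 CPM in WT, the share was thus larger for genes called higher (44.4%) than for genes not called (30.4%). Lower genes, of which 44.5% had CpG-rich promoters, were below the 67.6% of uncalled expressed genes. These are descriptions and no test was made. Lower genes shown above include examples of both kinds, such as *Il1rl1* with a ratio of 0.0987 and *Epas1* with 1.01.

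The effect in Treg cells was set against that in CD4+Foxp3- cells by a term for the difference of the 2 effects. The Foxp3-negative cells of DKO mice can include cells that had expressed *Foxp3*, and so deleted *Tet2* and *Tet3*, before they lost it, so they cannot be taken as cells with both genes intact. This interaction passed an adjusted p of 0.05 for 47 genes (0.28% of those tested), and with the replicate number as a block, which pairs the cell types by number, for 118. The count depends on single libraries, from 9 without Treg WT replicate 2 to 462 without Foxp3-negative DKO replicate 2. Of the differences named here, those of *Epas1* and *Nrp1* passed in all 12 omissions of a library. The others no longer passed in 1 (*E2f1*), 4 (*Appl2* and *Tgfbr1*), 6 (*Rnase4*), 7 (*Kcnk5*) or 8 omissions (*Il1rl1*, *Ssx2ip* and *Dnah7a*). Of the 47 genes, 38 were called in Treg cells, 18 higher and 20 lower, and 4 of these were also called in Foxp3-negative cells. *Il1rl1* was at 2.47, 3.78 and 2.39 CPM in WT against 2.84, 4.01 and 2.65 CPM in DKO Foxp3-negative cells, and its effect differed by -3.54 on the log2 scale (adjusted p = 0.0404, edgeR; 0.0258 with the block). *Epas1* was at 31.4, 40.2 and 27.8 CPM in WT against 19.8, 9.99 and 22.8 CPM in DKO Foxp3-negative cells, a smaller decrease than in Treg cells (difference -2.87 ± 0.37, adjusted p = 0.00735, edgeR). *Rnase4*, a secreted ribonuclease, was at 51, 49 and 38.6 CPM in WT against 14.1, 14.2 and 16.1 CPM in DKO Treg cells, and at 3.92, 4.86 and 3.99 CPM in WT against 6.39, 22.1 and 7.07 CPM in DKO Foxp3-negative cells (difference -3.13, adjusted p = 0.025, edgeR).

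*Appl2*, an endosomal adaptor of receptor signalling, rose in Treg cells from 2.14, 0.992 and 2.36 CPM to 14.7, 12.6 and 6.04 CPM, and was at 17.9, 14.8 and 18.4 CPM in WT against 13.6, 9.22 and 14.1 CPM in DKO Foxp3-negative cells (difference 3.08, adjusted p = 0.0151, edgeR). Its level in DKO Treg cells thus came near that of Foxp3-negative cells. *E2f1*, a factor of entry into S phase, was at 15.6, 15.9 and 15.9 CPM in DKO Treg cells and 5.28 to 6.1 CPM in the other 9 libraries (difference 1.45, adjusted p = 0.00812, edgeR). *Ssx2ip*, a centrosome protein, differed by 1.36. *Dnah7a* and the potassium channel gene *Kcnk5* differed by -5.94 and -3.29, but with the block their adjusted p was 0.0604 and 0.0512. For *Nrp1* and *Tgfbr1*, too, the effect was more negative in Treg than in Foxp3-negative cells, by -2.60 (adjusted p = 0.00588, edgeR) and -1.26.

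**Figure D5:**
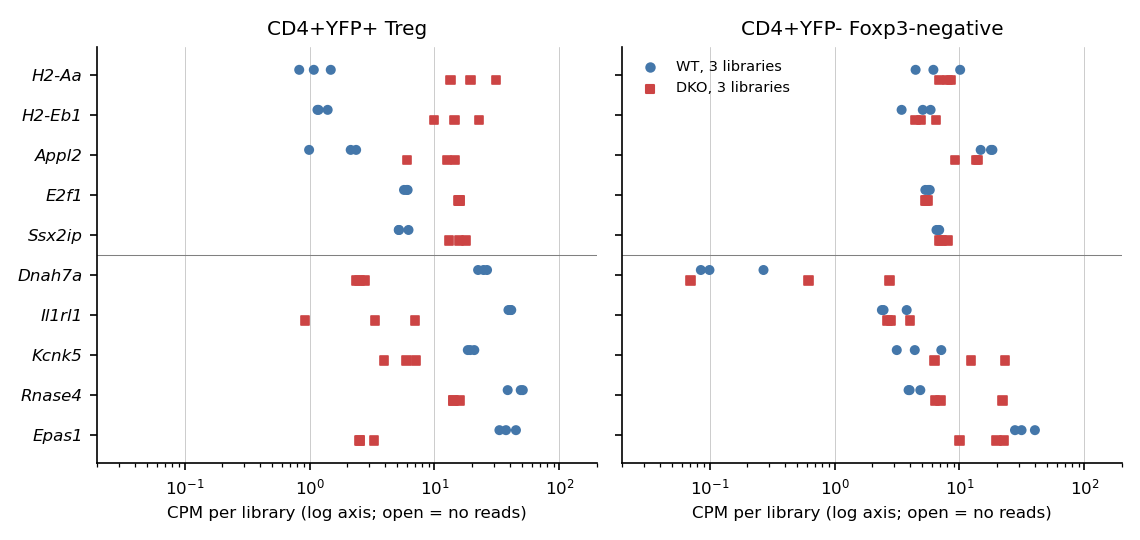
Level in each library, in CPM on a log axis, of the 5 genes with the largest positive and the 5 with the largest negative difference in the DKO effect between Treg and CD4+Foxp3- cells of mLN, among genes called in Treg cells that passed the test of the difference and had at least 10 CPM in the higher Treg group, 3 libraries per group. *E2f1* is at 15.6 to 15.9 CPM in DKO Treg libraries and *Il1rl1* at 39.1 to 41.2 CPM in WT Treg libraries, both apart from the other 9 libraries.

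In Treg cells of spleen and pLNs, with 2 DKO and 2 WT libraries and a fit of their own, 1.74% of 16357 genes were called. *Klrb1c* was at 7.3 and 6.06 CPM in WT against 110 and 86.4 CPM in DKO (3.88 ± 0.37, adjusted p = 0.000612, edgeR), and *Penk* at 136 and 106 CPM in WT against 1674 and 1678 CPM in DKO (3.79 ± 0.39, adjusted p = 0.00109, edgeR). *Nrn1*, *Ntrk3*, *Cx3cr1*, *Itga6*, *Pde2a* and *Ecm1* were called there in the same direction, with log2 fold changes of 2.62, 2.12, 3.86, -1.54, -2.12 and -1.41. Others did not pass the test in spleen and pLNs. *Odc1* was at 288 and 285 CPM in WT against 383 and 401 CPM in DKO (adjusted p = 0.407, edgeR), *Pdcd1* at 218 and 167 CPM in WT against 274 and 187 CPM in DKO (0.755), and *Il2ra* at 511 and 494 CPM in WT against 399 and 436 CPM in DKO (0.414). *Ccr9*, abundant in WT mLN Treg cells, was at 8.53 and 7.73 CPM in WT against 4.41 and 2.73 CPM in DKO. *Foxp3* was at 165 and 153 CPM in WT against 419 and 235 CPM in DKO (1.04 ± 0.25, adjusted p = 0.0607, edgeR), while in mLN the groups overlapped. Differences between the tissues were not tested, since the tables were normalized separately.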

How the data were processed

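Of the 20 samples of the series, the 12 mLN samples (4 groups of 3) were fitted together and 4 Treg samples of spleen and pLNs were set beside them from a fit of their 8 libraries. Samples were grouped by their labels and columns matched by name, and 0 columns of sample values were left without a sample. The authors mapped reads to mm9 with TopHat2 (2.1.1), allowing each read no more than 1 alignment, and deposited counts per RefSeq gene made by strand-specific featureCounts (Subread 1.4.3-p1). The deposited TPM, whose calculation is not given in the sources used here, only ranked abundant genes.

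Counts were TMM-normalized and tested with edgeR 4.0.16 (quasi-likelihood, R 4.3.3) for genes with at least 1 count in total, without a replicate block. Standard errors were derived from the fold change and its F statistic. With 9998478 to 13100924 counts per Treg library and a biological coefficient of variation of 17.7%, the floor of 3 counts is a counting limit only. The workflow was tested on simulated data. The members and lists were chosen with earlier results of these data known. Named genes were the 15 that rose and the 15 that fell most among called genes whose higher group had 10 CPM or more and whose replicates were separate, the 10 called genes per direction with the highest TPM, the 5 per direction with the largest difference between cell types among called genes with an interaction adjusted p of 0.05 or less and 10 CPM or more in the higher Treg group, *Tet2*, *Tet3* and members of 50 lists.

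Whether Treg and Foxp3-negative samples of the same number came from the same mouse is not given in the labels. Their deviations correlated for the same number at 0.171, 0.174 and 0.183 in WT and 0.110, 0.372 and 0.390 in DKO. For unlike numbers within a genotype the correlations ran from -0.357 to 0.160, the highest being DKO Treg replicate 3 with Foxp3-negative replicate 1. The alternatives were DESeq2 1.42.0, its size factors, filterByExpr, a robust prior, only the Treg libraries, a replicate block, no fold minimum and omission of each library. Coordinates of genes are from NCBIM37 with GENCODE M1, and promoter sequences from RefSeq's GRCm38.p6, with no conversion between builds. Some genes of these lists are not reported here.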

Additional observations from a re-analysis of the deposited data

Results flagged for a closer look

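For 10 genes the DKO effect differed between Treg and CD4+Foxp3- cells of mLN by edgeR's test of the difference of the effects without a replicate block. With the block, *Dnah7a* and *Kcnk5* did not pass (edgeR's adjusted p = 0.0604 and 0.0512). Of the 10 genes, 5, 7 and 6 no longer passed without Treg WT replicates 1, 2 and 3, and 6, 4 and 6 without Foxp3-negative WT replicates 1, 2 and 3, while omission of a DKO library ended at most 3. *H2-Aa*, *H2-Eb1* and *Epas1* passed in all 12 omissions. On the log2 scale, the effect in Treg cells was greater by 4.04 for *H2-Aa*, 3.50 for *H2-Eb1*, 3.08 for *Appl2*, 1.45 for *E2f1* and 1.36 for *Ssx2ip*. It was more negative in Treg cells for *Dnah7a* (-5.94), *Il1rl1* (-3.54), *Kcnk5* (-3.29), *Rnase4* (-3.13) and *Epas1* (-2.87). *H2-Aa* and *H2-Eb1* encode chains of MHC class II and rose in Treg cells from 1.48, 0.827 and 1.08 CPM to 19.4, 31.2 and 13.4 CPM and from 1.4, 1.16 and 1.18 CPM to 14.4, 22.9 and 9.9 CPM. In Foxp3-negative cells *H2-Aa* was at 10.1, 4.46 and 6.18 CPM in WT against 6.83, 8.58 and 8.04 CPM in DKO. *Kcnk5* was at 3.15, 7.16 and 4.39 CPM in WT against 6.3, 23.2 and 12.4 CPM in DKO Foxp3-negative cells, where the groups overlapped and it was not called (edgeR's adjusted p = 0.0576). The cause of these differences was not tested.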

How the results depend on the processing

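The count of genes called higher, 1426, was 934 to 1348 when a library was left out, and 1320 to 1857 under the other alternatives, and the count called lower, 575, was 391 to 598 with a library left out and 1392 with no fold minimum. WT and DKO Treg samples of the same number did not deviate together (correlations 0.060, -0.017 and 0.086), and a replicate block gave 1423 higher and 632 lower genes. The interaction count of 47 was 402 with DESeq2, 118 with the replicate block and 9 to 462 when a library was left out. In spleen and pLNs DESeq2 called 447 genes higher and 216 lower, instead of 186 and 99. With no fold minimum, the share of CpG-rich promoters was 69.3% of higher genes with a WT mean of at least 1 CPM, instead of 66.0%, and 60.0% of lower genes, instead of 44.5%. For the genes named for the size of their change, their TPM or the difference between cell types, and not for list members, there were 684 values under alternatives, of which 651 kept their direction and their side of the threshold, 33 kept the direction only and 0 reversed. For the differences between cell types these were 121, 49 and 0 of 170. No alternative scaling moved the median of all genes by more than 0.0304 on the log2 scale. The cause of these shifts was not tested. With 3 libraries per group, genes near the floor of 0.216 to 0.295 CPM and changes below about the minimum fold are the least certain.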
